A study of Mus musculus with 6 samples.

Results

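Autophagy is the route by which cells enclose proteins and organelles in a double membrane, the autophagosome, and deliver them to lysosomes for breakdown. A kinase complex starts the process, a lipid kinase marks the site, membrane is supplied and extended, and small ubiquitin-like proteins of the ATG8 family are joined to the membrane by conjugation enzymes. Cargo receptors hold the cargo with one part and ATG8 proteins with another. In neurons, which do not dilute damaged material by dividing, loss of autophagy is known to lead to protein aggregates.

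The genes described here are the autophagy machinery and receptors, chosen by gene symbol alone: the Atg genes with a number, Ulk1 and Ulk2, Map1lc3a and Map1lc3b, the Gabarap genes, Wipi1 and Wipi2, and 18 other genes named singly. The rule found 45 of the 16472 genes listed. It used no measured value, but the members were chosen with earlier results of these data known. Cultures of HT22, an immortalised mouse hippocampal cell line labelled as neurons, received AA147 at a concentration the labels give as 10 mM, a unit that may be a slip for micromolar, or the solvent DMSO as vehicle, and all were taken after 16 h. AA147 is a small molecule known to activate ATF6, a sensor of misfolded proteins in the endoplasmic reticulum (ER), and the oxidative stress regulator NRF2. Messenger RNA was sequenced without strand information from 3 libraries per group, 6 in all. The labels do not say that the libraries came from separate cultures, so the p-values measure the spread between these libraries, which may be technical.

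The authors compared both groups themselves, and the values come from that comparison (the authors' deposited table), in which each gene has 1 line and single libraries have none. Each line gives the mean of the normalized counts of the libraries, a log2 fold change with its standard error (SE), and a p-value adjusted over the 13597 genes that had one. A gene is said to be called when that adjusted p is under 0.05. The table does not name the numerator of the fold change. Positive values are read as higher with AA147, a reading that rests on the known activation of NRF2 by the compound and the positive values of NRF2 targets such as Nqo1 (0.93, SE 0.067, in the authors' deposited table). If the table were vehicle over AA147, every direction below would be reversed, and because Sqstm1 is itself a known NRF2 target its sign is not independent of the reading.

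Of the 13 neuronal markers examined, 11 had no value analysed here, among them Rbfox3, Map2 and Snap25, and the remaining 2, Tubb3 and Stmn2, had means of 1199 and 6.24 in the authors' deposited table. Of these, Tubb3 rose (0.43, SE 0.092, adjusted p 5.67e-05) per the authors' deposited table, and Stmn2 had no adjusted p. For 8 fibroblast markers, 7 were listed in the authors' deposited table and 6 of these fell: Col1a1, Col1a2, Col3a1, Dcn, Pdgfra and Pdgfrb. Thy1, at a mean of 2168, was not called there (-0.03, SE 0.075). The group levels implied by the means and fold changes summed to 608217 with vehicle and 275680 with AA147. Most of each sum was collagen RNA, with Col1a1 and Col1a2 at 206337 and 336475 with vehicle and at 72014 and 171534 with AA147. Most neuronal markers thus gave no value in favour of the labelled identity. Of 10 glial markers 3 were listed in the authors' deposited table, with 1 fall. Of 4 endothelial markers 3 were listed, with means of at most 5.77 and no adjusted p, so none could be called. The part of these markers in the results below was not tested. In bulk RNA, fewer cells of a type and less RNA per cell cannot be told apart.

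Most of the autophagy genes were not called, and the called ones all lay on 1 side. Of the 45 genes in the authors' deposited table, 7 were called, 15.6%, where 20.2% of all tested genes were called. All 7 rose: the membrane protein gene Atg9b, the cargo receptor genes Sqstm1, Calcoco1, Ccpg1 and Tax1bp1, the phosphoinositide reader Wipi2 and the lipid kinase subunit Becn1. The background for positive calls was 9.05% and that for negative calls 11.1% in the authors' deposited table. None of the 45 was called negative by the authors' DESeq2 test, and 1 had a negative fold change with an unadjusted p under 0.05. A trend on transcript length, GC content and mean was also subtracted, for the 10092 genes with a length and a mean of at least 100. These hold 43 of the members, without Atg10 and Atg4a. With p-values adjusted over these genes, the split of the 7 calls became 5 positive and 2 negative. Uvrag (-0.21, adjusted p 0.0425) and Rb1cc1 (-0.19, adjusted p 0.0424) were then called negative, and Becn1 and Tax1bp1 were not called.

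The changes were small. The 45 genes had a median log2 fold change of 0.07, beside 0.01 over all genes, and 28 of the 45 (62.2%) had a positive value in the authors' deposited table, beside 51.4% of all genes. An absolute log2 fold change under 0.25 was listed for 39 of the 45 genes (86.7%), and only Atg9b reached 0.5. Most of the set is well expressed: 43 of the 45 genes had a mean of 100 or more there. Among all genes of the authors' deposited table at that level 23.8% were called, 10.7% positive and 13.1% negative, and 76.2% had an absolute log2 fold change under 0.25.

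**Figure D1:**
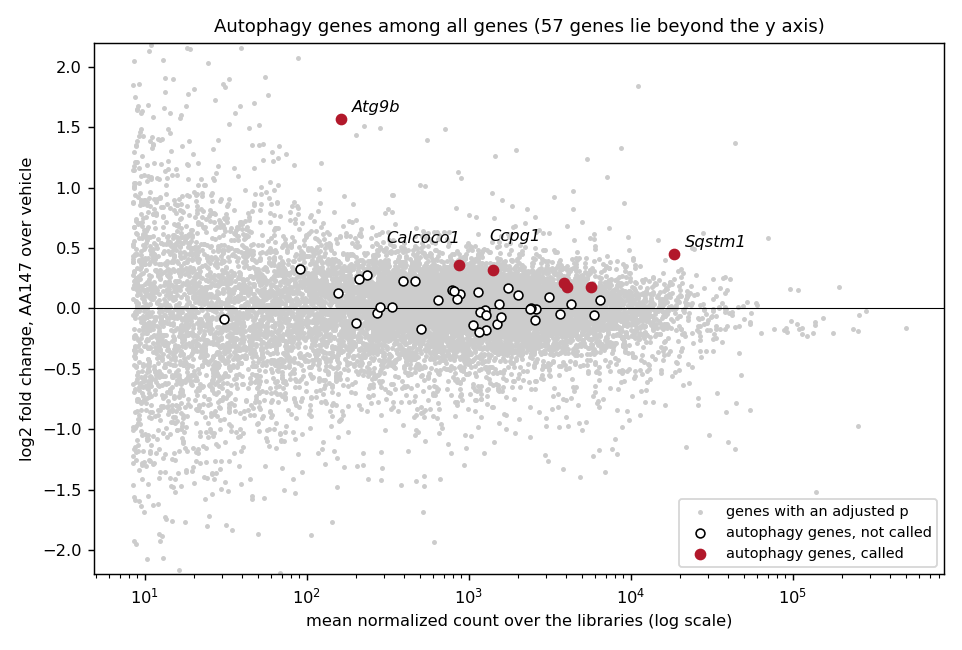
Log2 fold change (y axis, AA147 over vehicle) against the mean normalized count over the libraries (x axis, log scale) for genes with an adjusted p (grey), the 38 autophagy genes not called (open) and the 7 called (red). Atg9b stands at 1.57 and Sqstm1 at 0.45 with a mean of 18482, while most autophagy genes lie within 0.25 of zero.

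Taken gene by gene, and for these libraries, whose spread may be technical, precision was sufficient in most members not called. It excluded a log2 fold change beyond 0.5 in them. All called genes but Atg9b lay below that limit, so changes of their size are not excluded for every uncalled gene. The SE ran from 0.055 for Sqstm1 to 0.41 for Atg10 in the authors' deposited table, and the median was 0.086. For 34 of the 38 genes not called, the 95% interval of the log2 fold change (computed here from the SE) lay within 0.5 of zero. The other 4, Gabarapl2, Fam134b, Atg4a and Atg10, had wider intervals, which do not exclude a larger change. No member had an SE as much as 1.5 times the median SE of the genes nearest to it in mean, and the largest ratio was 1.35 for Epg5, which has the second longest transcript of the set.

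The cargo receptors held 4 of the 7 calls. Soluble receptors bind ubiquitin-tagged or other cargo in the cytosol, and the authors' deposited table gave positive fold changes for all 5 examined, and 3 of them were called. The clearest was Sqstm1, encoding p62, which gathers ubiquitinated proteins into condensates and also binds KEAP1, the inhibitor of NRF2. Its mean in the authors' deposited table was 18482 normalized counts. Taken at face value, its fold change implies averages of 15637 with vehicle and 21326 with AA147. The log2 fold change was 0.45 (SE 0.055, adjusted p 1.99e-14) per the authors' deposited table, a rise of 36.4% with a 95% interval from 1.27-fold to 1.47-fold. Of 465 genes whose mean reached 10000 or more in the authors' deposited table, 9 had a higher fold change than Sqstm1.

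Calcoco1, which encodes a coiled-coil protein described as a receptor for ER and Golgi membranes, rose by 28.4% in the authors' deposited table (log2 fold change 0.36, SE 0.10, adjusted p 0.00293). The implied averages were 762 with vehicle and 978 with AA147. Tax1bp1, a ubiquitin-binding receptor that acts with p62, rose by 13.2% in the authors' deposited table (0.18, SE 0.069, adjusted p 0.0465). It was the called gene nearest the threshold, and its call was lost when fold changes were centred on the median of genes with a mean of at least 100 (adjusted p 0.0710) as well as after the trend was subtracted (adjusted p 0.180). Nbr1, a relative of p62 with the same kind of ubiquitin-binding and LC3-binding parts, had the narrowest interval of the genes not called, at 0.07 (SE 0.058, 95% interval -0.05 to 0.18) in the authors' deposited table. The interval of Nbr1 lay wholly below that of Sqstm1. Optn, encoding optineurin, had a mean of 156 and a value of 0.12 with a wide interval from -0.24 to 0.49 in the authors' deposited table.

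Among the receptors fixed in membranes, Ccpg1, an ER protein that binds LC3 and FIP200 and is known to be induced by ER stress, rose by 24.5% in the authors' deposited table (0.32, SE 0.082, adjusted p 0.00125). The implied averages were 1258 with vehicle and 1566 with AA147. The other three were not called. Fam134b, now named Retreg1 and the best known ER receptor, had a mean of 211 with a log2 fold change of 0.25 (95% interval -0.09 to 0.58) in the authors' deposited table. The mitochondrial receptor genes Bnip3l and Fundc1 had negative values of -0.12 (95% interval -0.45 to 0.20) and -0.17 (95% interval -0.42 to 0.07) in the authors' deposited table. Over all 9 receptors, soluble and membrane-bound, the median log2 fold change was 0.18 and 4 were called (44.4%). Among the 36 other members the median was 0.02 and 3 were called (8.33%), a difference that was not tested. All these calls were positive, where 20.2% of all tested genes were called and 9.05% were called positive. Of 14 further cargo receptors outside the set, described below, 1 was called positive and 2 negative.

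**Figure D2:**
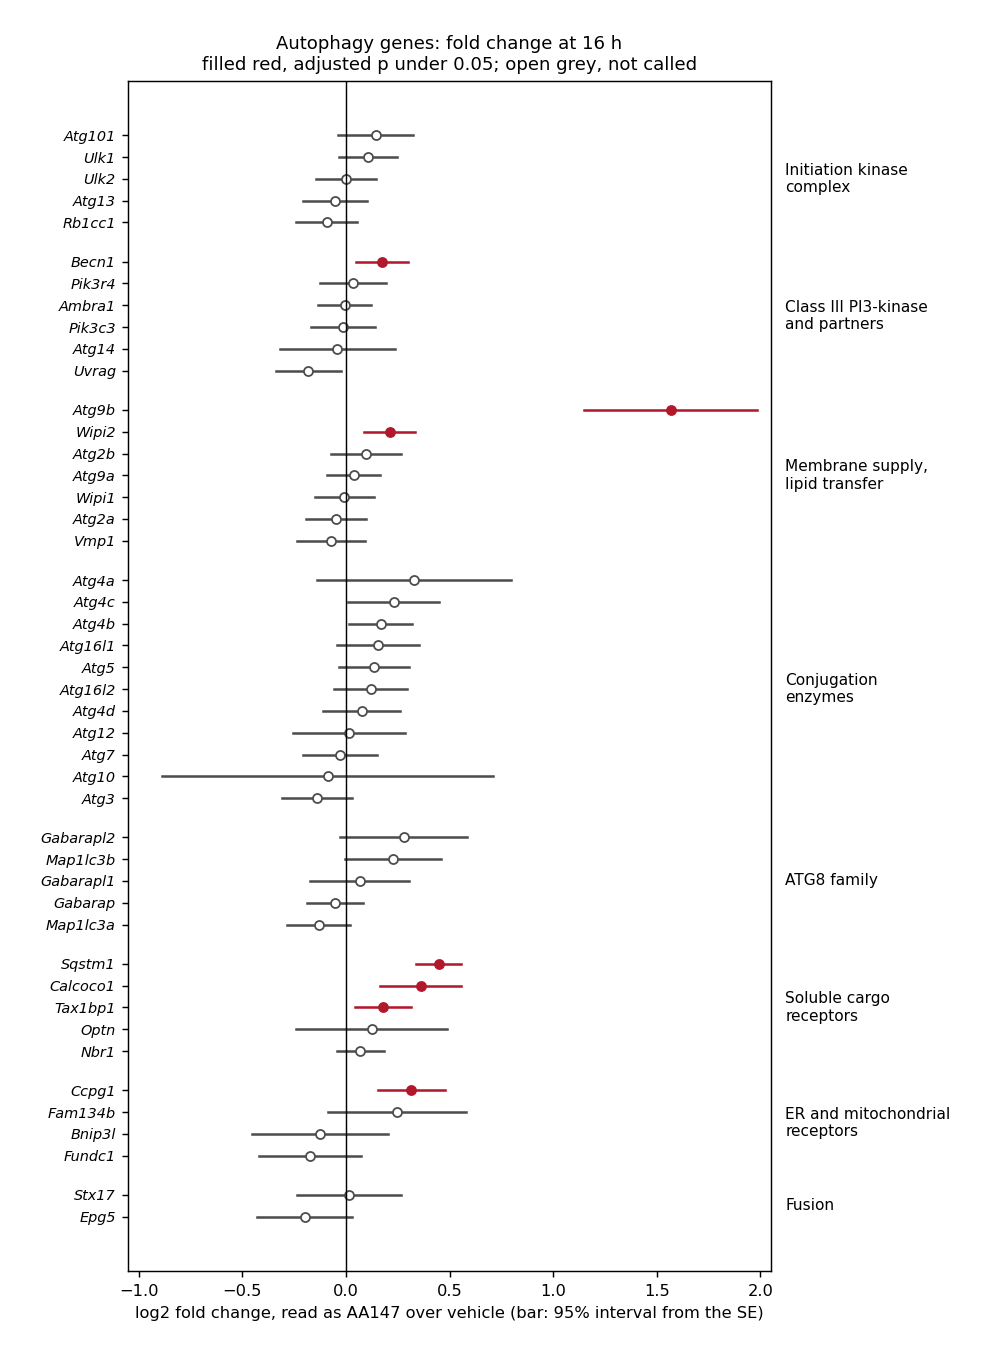
Log2 fold change of each of the 45 autophagy genes (x axis, AA147 over vehicle) with its 95% interval from the authors' SE, grouped by role. Red filled points are the 7 called genes, and grey open points were not called. Atg9b lies apart at 1.57, and the intervals of Sqstm1, Calcoco1 and Ccpg1 lie above zero.

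Genes that supply membrane and lipid to the growing autophagosome included the largest change of the set. Atg9b encodes the less widely expressed ATG9 lipid scramblase, one of the transmembrane proteins whose vesicles seed the autophagosome. With a mean of 162 normalized counts in the authors' deposited table, it rested on few reads compared with most members. The implied averages were 81.8 with vehicle and 242 with AA147. Its log2 fold change was 1.57 (SE 0.21, adjusted p 9.05e-12) per the authors' deposited table, a 2.96-fold rise with a 95% interval from 2.22-fold to 3.96-fold. It ranked 16 by fold change among the 1134 positive calls with a mean of at least 100. The paralog Atg9a, with a mean of 4284, had a value of 0.04 (95% interval -0.09 to 0.17) in the authors' deposited table.

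Reads could not be assigned to a strand, and Atg9b shares 297 of the 3902 bases of its canonical GENCODE transcript with the end of Nos3, which encodes endothelial nitric oxide synthase and lies on the opposite strand. In the shared bases, reads of the 2 genes cannot be told apart. Nos3 was not analysed here, and its part in the Atg9b value was not tested. The 250 bases before the Atg9b start overlap no annotated exon. They are shown because Atg9b had the largest fold change of the set, and are taken from RefSeq on assembly GRCm38.p6, chr5:24392144-24392393, minus strand, written 5′ to 3′ toward the start:
Atg9b: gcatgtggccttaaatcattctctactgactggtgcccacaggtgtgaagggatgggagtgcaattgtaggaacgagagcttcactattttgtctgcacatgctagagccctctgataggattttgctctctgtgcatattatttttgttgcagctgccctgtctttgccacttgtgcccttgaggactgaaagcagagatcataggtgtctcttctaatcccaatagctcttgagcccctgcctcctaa

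Wipi2, which reads the lipid mark PI3P and brings the conjugation enzymes to the membrane, rose by 15.7% in the authors' deposited table (0.21, SE 0.064, adjusted p 0.00775). Its implied averages were 3594 with vehicle and 4158 with AA147. Wipi1, a related PI3P reader, had a value of -0.01 (95% interval -0.15 to 0.13) in the authors' deposited table at a mean of 2388. The remaining members of the group, the lipid transfer genes Atg2a and Atg2b and the scramblase gene Vmp1, were not called, with values of -0.05, 0.10 and -0.07 in the authors' deposited table.

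The class III PI3-kinase makes PI3P at the forming membrane, from the catalytic subunit encoded by Pik3c3, the scaffold encoded by Pik3r4, and Beclin 1 with either ATG14 or UVRAG. Becn1, encoding Beclin 1, rose by 12.8% in the authors' deposited table (0.17, SE 0.064, adjusted p 0.0357), with implied averages of 3782 and 4267. This call was lost with centring (adjusted p 0.0577) and with the trend subtracted (adjusted p 0.117). Uvrag, which takes the complex to endosomes, was the uncalled member nearest the threshold, at -0.18 (SE 0.081, adjusted p 0.0977) per the authors' deposited table. The implied averages of Uvrag were 1349 with vehicle and 1190 with AA147. The other members, Pik3c3, Pik3r4, Atg14 and the Beclin partner gene Ambra1, had values from -0.04 to 0.03 in the authors' deposited table.

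The initiation kinase complex joins the kinase ULK1 or ULK2 to FIP200, encoded by Rb1cc1, and to ATG13 and ATG101. None of its 5 genes was called by the authors' DESeq2 test, and none had an unadjusted p under 0.05. Their values lay between -0.09 for Rb1cc1 and 0.14 for Atg101 in the authors' deposited table. Both kinases had like levels for their length, at 329 normalized counts per kilobase of transcript for Ulk1 and 363 for Ulk2. The fold change of Ulk1 was 0.11 (95% interval -0.03 to 0.25), and that of Ulk2 was 0.00 (95% interval -0.15 to 0.15), in the authors' deposited table.

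Conjugation enzymes attach ATG8 proteins to lipid. ATG7 activates them, ATG3 carries them, the ATG12, ATG5 and ATG16L1 complex places them, and ATG4 proteases trim and release them. None of the 11 genes was called by the authors' DESeq2 test, and 2 had an unadjusted p under 0.05. Of the 11, 8 had positive values in the authors' deposited table, and their median was 0.12. All 4 proteases were positive in the authors' deposited table, at 0.33 (SE 0.24) for Atg4a, 0.17 (SE 0.077) for Atg4b, 0.23 (SE 0.11) for Atg4c and 0.08 (SE 0.095) for Atg4d. Atg4b and Atg4c gave the 2 unadjusted p-values under 0.05 in the authors' deposited table, with adjusted p-values of 0.112 and 0.137. Atg7 lay at -0.03 and Atg3 at -0.14 in the authors' deposited table, with 95% intervals of -0.21 to 0.15 and -0.31 to 0.03.

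The ATG8 family genes encode the proteins that decorate the autophagosome, and an LC3 gene is often used as its marker. None of the 5 was called by the authors' DESeq2 test, and none had an unadjusted p under 0.05. Map1lc3b, encoding LC3B, lay at 0.23 (SE 0.12, adjusted p 0.172) per the authors' deposited table, with a 95% interval from -0.00 to 0.46. Map1lc3a, encoding LC3A, lay on the other side at -0.13 (SE 0.077, adjusted p 0.241) per the authors' deposited table, with a 95% interval from -0.28 to 0.02. Gabarapl2 at 0.28 (SE 0.16), Gabarapl1 at 0.07 (SE 0.12) and Gabarap at -0.05 (SE 0.068) made up the rest in the authors' deposited table. Map1lc3b and Gabarapl2 have 4 and 3 near-identical pseudogene copies in GENCODE, at 95% identity or more over at least 200 bases, so their values are uncertain where the authors' counting split reads among copies. The same holds for Atg4a, whose copy Atg4a-ps is 99.3% identical over 2115 of 2229 bases, and for Bnip3l, with copies in Bnip3l-ps over 657 and Gm58964 over 1131 of 3246 bases. Shorter parts of Uvrag match many other genes at this identity, such as Klhl20 over 344 of 6320 bases. Rb1cc1 matches Potefam1 over 265 of 7646 bases.

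Genes for fusion with the lysosome were the SNARE gene Stx17 at 0.01 (95% interval -0.24 to 0.26) and the tether gene Epg5 at -0.20 (95% interval -0.43 to 0.03) in the authors' deposited table. Neither was called by the authors' DESeq2 test, and neither had an unadjusted p under 0.05.

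Levels were compared between genes as the mean normalized count per kilobase of canonical transcript, a level and not a difference. Sqstm1 had the highest level of the set, 5655 per kilobase, followed by Gabarap at 3353 and Map1lc3a at 1812. Nbr1, Tax1bp1 and Wipi1 came next, at 1377, 1200 and 1154 per kilobase. At the other end were Atg10 with 16.7, Atg4a with 40.9 and Atg9b with 41.5 per kilobase. Among the ATG8 genes Gabarap was thus the most abundant transcript, and Gabarapl1, Map1lc3b and Gabarapl2 lay between 139.9 and 443.4 per kilobase. The spread between libraries behind these levels was not analysed here, so neighbours in the order cannot be separated.

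**Figure D3:**
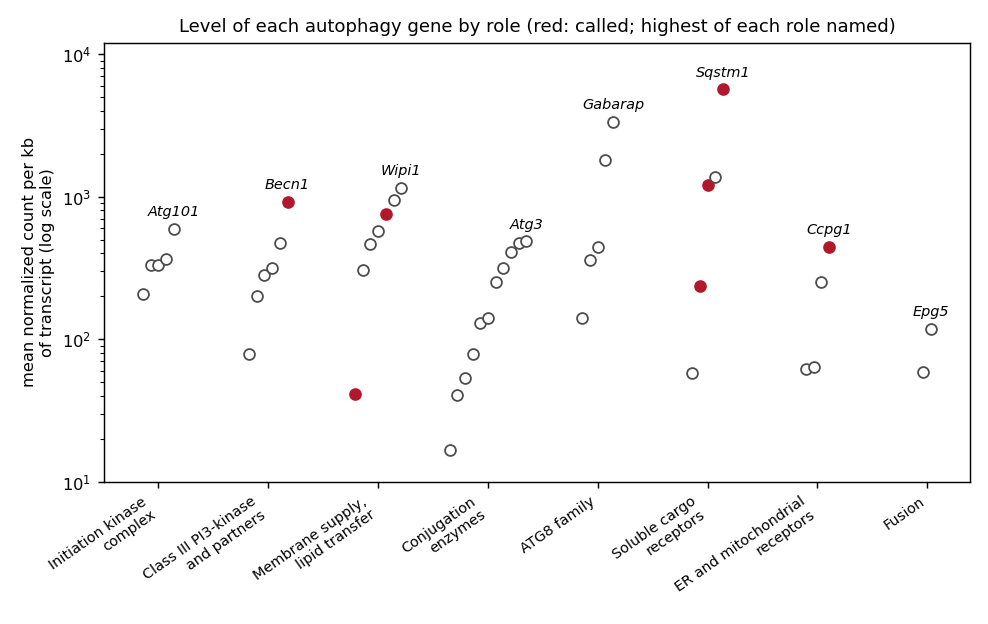
Mean normalized count per kilobase of canonical transcript (y axis, log scale) for the 45 autophagy genes, grouped by role on the x axis and ordered by level within each role. Red points are called genes, and the highest gene of each role is named; Sqstm1 is highest at 5655 and the called Atg9b is among the lowest at 41.5.

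Because the libraries were not stranded, genes that overlap on opposite strands share reads. Of the 45 genes, 25 have canonical exons that overlap an exon of another gene in GENCODE, and 5 of the 7 called genes are among them. Sqstm1 shares 141 of 3268 bases with Mgat4b on the opposite strand, which rose in the authors' deposited table (0.26, SE 0.067, adjusted p 0.00114), and 796 bases with Mrnip, which was not analysed here. Ccpg1 shares 2894 of 3182 bases with Gm44503, a protein-coding gene on the same strand that was not analysed here, so its value cannot be assigned to Ccpg1 alone. It also shares 2066 bases with Pigb on the opposite strand, which lay at 0.27 (SE 0.11, adjusted p 0.0644) per the authors' deposited table. For Becn1 the partner is Cntd1, with 2361 of 4367 bases shared and a mean of only 16.0 in the authors' deposited table. The called genes free of any such overlap were Calcoco1 and Wipi2, which makes 2 of the 20 members with none. Over all tested genes, with or without overlap, 20.2% were called and 9.05% were called positive. Overlaps were examined for the members only, so no share exists for other genes without overlap. The part of the partners' reads in the other values was not tested.

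Promoters were searched for 2 short motifs because both regulators that read them bear on autophagy genes. CACGTG is the core of the CLEAR element read by TFEB and TFE3 and of other E-boxes, and TGACNNNGC is the core of the antioxidant response element read by NRF2. Both strands of the 250 bases before each RefSeq start (GRCm38.p6) were examined, and 37 of the 45 genes had an entry. A gene was counted when any of its starts held the motif. CACGTG was found in 4 of the 37 genes (10.8%), beside 9.76% of 10124 tested genes with a promoter, and TGACNNNGC likewise in 4 (10.8%), beside 13.8%. Of all 32851 RefSeq promoters, counted singly and not by gene, 6.02% held CACGTG and 10.2% held TGACNNNGC. None of the 6 called genes with an entry held CACGTG and 1, Tax1bp1, held TGACNNNGC, before 1 of its 2 listed starts. Sqstm1 and Atg9b held neither in this window. The sites are given as 30 bases in the direction of the gene, with the motif in capitals, for the one called gene and for the 3 conjugation enzyme genes with CACGTG. They lie on GRCm38.p6, plus strand, at chr6:52713950-52713979 for Tax1bp1, chr16:45158723-45158752 and chr16:45158746-45158775 for Atg3, chr10:44268309-44268338 for Atg5 and chr6:114670952-114670981 for Atg7:
Tax1bp1: gtctccgtggTGACGAAGCtctctttccca
Atg3: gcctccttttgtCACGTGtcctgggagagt
Atg3: ggagagtcgagtCACGTGaggccttaggtg
Atg5: agggcggagcgcttgcCACGTGgtcttggt
Atg7: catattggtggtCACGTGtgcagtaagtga
Atg3 thus holds CACGTG at 94 and at 71 bases before its start. The shares in the set lay near those of all tested genes, and a match is a description of the sequence and not a measured binding site.

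Other genes of the pathway, from 5 lists, gave 11 calls among the 70 with an adjusted p, 6 positive and 5 negative in the authors' deposited table (15.7%, beside the same background of 20.2%). The transcription regulators numbered 9, of which 2 were called (22.2%, near that background). Nfe2l2, encoding NRF2, fell in the authors' deposited table (-0.21, SE 0.069, adjusted p 0.0174), while Keap1 lay at 0.02 (SE 0.067). Tfeb and Tfe3, the main activators of lysosomal and autophagy genes, lay at -0.08 (SE 0.096) and 0.02 (SE 0.071) per the authors' deposited table and were not called. Mitf, of the same family, rose in the authors' deposited table (0.71, SE 0.21, adjusted p 0.00662) from a mean of 126.

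Among 21 genes of nutrient sensing, Prkaa1, a catalytic subunit of the energy sensor AMPK, rose in the authors' deposited table (0.31, SE 0.068, adjusted p 9.8e-05). The AMPK subunit gene Prkab2 also rose (0.59, SE 0.20, adjusted p 0.0213), and Sesn1, a sestrin that restrains mTORC1, fell (-0.34, SE 0.10, adjusted p 0.00540), both per the authors' deposited table. Other AMPK subunit genes were not called there: Prkab1 at -0.15, Prkag1 at 0.08 and Prkag2 at 0.12. The mean of Prkab1 was 2625, beside 160 for Prkab2. In this list 3 of the 21 genes were called (14.3%), beside the background of 20.2%. In the list of other formation genes, Sh3glb1, encoding a Beclin 1 partner that bends membranes, was the single call of 14 in the authors' deposited table (0.26, SE 0.069, adjusted p 0.00197). That share, 7.14%, was below the same background of 20.2%.

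Of 14 other cargo receptors, Fam134a, a relative of Fam134b, rose in the authors' deposited table (0.23, SE 0.062, adjusted p 0.00194). The ER receptor gene Tex264 (-0.18, adjusted p 0.0419) and the mitochondrial receptor gene Fkbp8 (-0.17, adjusted p 0.0452) fell in the authors' deposited table. Both of these calls were lost when the adjustment was recomputed over all genes with a p and when the trend was subtracted. The share called in this list, 21.4%, was near the background of 20.2%. In the fusion list 2 of the 12 genes tested were called (16.7%, beside the same 20.2%). They were Vps33a and Vps16, which encode binding partners within the HOPS tethering complex. The pair went opposite ways in the authors' deposited table, at 0.21 (adjusted p 0.0241) and -0.28 (adjusted p 0.000197).

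**Figure D4:**
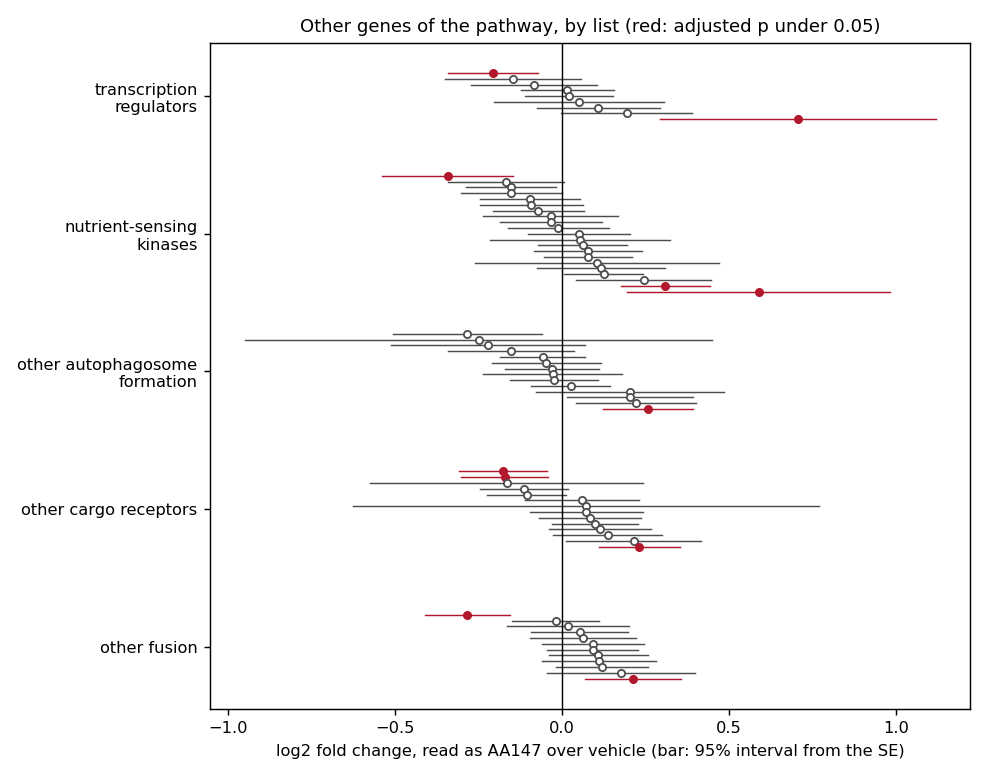
Log2 fold change (x axis, AA147 over vehicle) with its 95% interval for the 70 other pathway genes with an adjusted p, in 5 lists. Red marks the 11 called genes, 6 above and 5 below zero; the highest point is Mitf at 0.71 and the lowest Sesn1 at -0.34.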

How the data were processed

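The authors deposited 1 table for the 6 libraries, and no value per library was analysed here. Per the file headers its columns are those of DESeq2, and the submitters' processing notes name DESeq2 and mm9 without roles; the aligner and annotation are not given in the sources used here. Per the file headers the authors deposited a mean normalized count (a signal scaled to an average library, summing to 30768012), a log2 fold change and its SE, a score (the fold change over its SE), and p-values before and after adjustment. The 2875 genes without an adjusted p, none with a mean above 8.41, stayed uncalled. The depth of each library is unknown.

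From these were computed 95% intervals, implied group averages (assuming equal groups), and counts by direction. Lengths, GC content and exon overlaps came from GENCODE M39 (GRCm39), for all 45 members; near-identical copies came from BLAST 2.17.0, and promoters from RefSeq (GRCm38.p6). The trend was a robust regression over 10092 genes with a mean of at least 100. Of the code, only the step that recomputes p-values, their adjustment and the calls was tested on simulated data. Computations ran in Python 3.11.15 with statsmodels 0.14.6, SciPy 1.17.1 and pandas 2.3.3.

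The members and lists were chosen with earlier results of these data known. The rule named every called member, the ATG8 genes, the receptors, the uncalled member nearest the threshold, Nfe2l2, Keap1, Tfeb, Tfe3 and up to 3 called genes per direction in each pathway list. Other genes given with values were chosen after those were seen. Alternatives covered the threshold, the adjustment, limits on mean and fold, centring and the trend.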

Additional observations from a re-analysis of the deposited data

How the results depend on the processing

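No paired analysis was possible because single libraries have no value in the deposited comparison, and for the same reason no library could be left out and no other normalization run. The count of 7 called autophagy genes ranged from 5 to 7 under 6 alternatives, within 1.5 times. The 7 under the trend, among the 43 members with a mean of at least 100, were 5 positive and 2 negative. Uvrag and Rb1cc1 stood there in place of Becn1 and Tax1bp1. The count fell to 2 with a Bonferroni adjustment (Atg9b and Sqstm1) and to 4 with a limit of 0.25 on the absolute log2 fold change. It was 2 among the 20 genes without exon overlap, where 20.2% of all tested genes were called. That alternative was chosen after seeing the data, as was leaving out Atg9b, which left 6 by construction. Each of these 3 lower counts is stricter or covers fewer genes by construction. The 11 calls among other pathway genes became 6 at an adjusted p under 0.01, 6 with the fold limit and 0 with Bonferroni, where 19 had an unadjusted p under 0.05. The median log2 fold change of the members lay between 0.04 and 0.07 under its 4 alternatives. For 18 members (the called genes, the ATG8 genes, the receptors and Uvrag), 36 values were recomputed under centring or the trend. Of these, 31 kept direction and call, 4 lost the call (Becn1 and Tax1bp1), 1 gained it (Uvrag, under the trend) and 0 reversed. Centring lowers every value by 0.013, which is too little to reverse any of these 18 members. Outside these 18, Rb1cc1 also gained a negative call under the trend. The cause of these changes was not tested. At low means the SE limits what can be seen, as for Atg10 and Atg4a.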
